A study of Mus musculus with 12 samples.

Results

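The genes described here are the corticosteroid receptors and a set of genes that act on, or are known to be induced through, these receptors. There are 8 of them among 47729 genes in the deposited count table, chosen by name and found by their Ensembl identifiers: Nr3c1, Nr3c2, Hsd11b1, Fkbp5, Fkbp4, Sgk1, Tsc22d3 and Zbtb16. They were measured by RNA sequencing of the bilateral amygdalae of female C57/BL6 mice, an inbred strain, with 1 library per mouse. The labels place 3 mice in the less anxious group (mice 3, 7 and 12), 4 in the anxious group (mice 1, 4, 8 and 11) and 4 in the more anxious group (mice 2, 6, 9 and 10), while mouse 5 has no group. All mice were untreated and met the same tests, the elevated plus maze (EPM) at 9 weeks of age, the light/dark box (LD) at 10 weeks and the social interaction test (SIT) at 11 weeks, and their brains were taken after rapid decapitation. The groups are not an assigned condition. They are tertiles of the second principal component (PC2) of the same expression data, so a gene that differs between them may have had a part in making them. This component was picked among others because it correlated with LD and EPM measures. The behavior measures were taken on the animals and do not come from the expression data.

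Corticosterone, the main glucocorticoid of mice, reaches the brain from the adrenal gland and binds 2 nuclear receptors. The mineralocorticoid receptor binds it tightly and is largely occupied at rest, whereas the glucocorticoid receptor is filled mainly when the hormone rises, as in stress. Unliganded receptors sit in a complex with heat shock proteins and an FK506-binding co-chaperone, and after binding hormone they move to the nucleus, where they bind DNA at paired hexamers and turn genes on or off. The amygdala expresses both receptors and is a known site of glucocorticoid action on fear and anxiety behavior.

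Among the known targets, 2 had a receptor hexamer in the stretch around an annotated start, and Sgk1 had a complete palindrome. The search covered 250 bases before to 50 bases after each start that RefSeq annotates on the GRCm38.p6 build, for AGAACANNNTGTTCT (the palindrome) and for its hexamer AGAACA, read on both strands as AGAACA or TGTTCT. Each palindrome also counts as a window with hexamers. Of 32851 windows over all genes, 3 held the palindrome (0.00913%) and 6233 held a hexamer (19.0%). Windows were given for 6 of the 8 genes, 13 in all, of which 4 held a hexamer (30.8%). These 4 were windows of Sgk1 and Tsc22d3, genes with several annotated starts and so several windows. In 29 windows of 23 other glucocorticoid-induced genes, 4 held a hexamer (13.8%) and none held the palindrome. The windows below are shown because Sgk1 held 1 of the 3 palindromes, Tsc22d3 held a hexamer and Fkbp5, whose induction is widely used as a readout of the receptor, held neither. Capitals mark the palindrome in Sgk1 and the hexamer in Tsc22d3.
Sgk1, chr10:21993640-21993939, plus strand: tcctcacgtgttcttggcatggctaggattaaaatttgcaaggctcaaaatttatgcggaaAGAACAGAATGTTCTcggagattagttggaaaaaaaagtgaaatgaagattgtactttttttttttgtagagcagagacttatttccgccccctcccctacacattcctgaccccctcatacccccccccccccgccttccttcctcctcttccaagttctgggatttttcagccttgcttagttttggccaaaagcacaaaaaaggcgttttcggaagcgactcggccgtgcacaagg
Tsc22d3, chrX:140600473-140600772, minus strand: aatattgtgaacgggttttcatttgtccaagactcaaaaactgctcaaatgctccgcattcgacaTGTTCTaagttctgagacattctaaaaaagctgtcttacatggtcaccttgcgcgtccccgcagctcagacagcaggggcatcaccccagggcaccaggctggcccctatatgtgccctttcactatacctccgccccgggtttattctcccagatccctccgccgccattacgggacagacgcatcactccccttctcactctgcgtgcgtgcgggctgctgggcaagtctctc
Fkbp5, chr17:28486100-28486399, minus strand: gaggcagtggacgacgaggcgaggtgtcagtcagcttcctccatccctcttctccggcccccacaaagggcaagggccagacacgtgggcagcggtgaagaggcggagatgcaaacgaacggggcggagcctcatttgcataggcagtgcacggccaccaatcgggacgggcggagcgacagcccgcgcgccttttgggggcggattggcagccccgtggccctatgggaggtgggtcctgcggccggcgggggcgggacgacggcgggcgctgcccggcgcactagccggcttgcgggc
The palindrome of Sgk1 spans chr10:21993701-21993715, its first base lies 189 bases before the start of this window's transcript, and the next annotated Sgk1 start lies 965 bases downstream of the palindrome. The hexamer of Tsc22d3 begins 185 bases before its start. A match is a string of letters and does not show that a receptor binds there, and the absence of a match in Fkbp5 says nothing of sites outside the window.

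All 8 genes were detected in each of the 11 grouped mice, with between 147 (Zbtb16) and 4524 (Fkbp4) estimated counts. Levels are given as CPM, the reads of a gene relative to the reads of its library after TMM scaling, and levels of different genes are compared only per kilobase of exon. The length is that of all annotated exons of a gene together. It can exceed that of the transcripts present, to a degree that differs by gene, so the order of genes is approximate. Per kilobase, Fkbp4 was the most abundant at 35.9 ± 3.37 CPM per kilobase (SD, n = 11). Tsc22d3 (8.55 ± 0.858), Nr3c1 (6.96 ± 1.02), Sgk1 (6.80 ± 1.50) and Nr3c2 (6.53 ± 1.97 CPM per kilobase) formed a second level, within which each neighboring pair overlapped over the mice. Fkbp5 (2.86 ± 0.340), Hsd11b1 (1.99 ± 0.380) and Zbtb16 (1.50 ± 0.476 CPM per kilobase) were lower, and each neighboring pair again overlapped. The lowest value of Fkbp4, 30.9 CPM per kilobase, was above the highest of Tsc22d3, 10.9, and the lowest of Nr3c2, 4.61, was above the highest of Fkbp5, 3.38. The levels per kilobase of the glucocorticoid and mineralocorticoid receptors overlapped.

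The spread between mice differed widely among the 8 genes. The coefficient of variation over 11 mice was 31.7% for Zbtb16, 30.2% for Nr3c2, 22.1% for Sgk1 and 19.1% for Hsd11b1, all above the upper quartile (18.1%) of the 10850 genes with a mean of 4 to 110 CPM. Nr3c1 (14.7%) was near their median of 13.0%. Fkbp5 (11.9%), Tsc22d3 (10.0%) and Fkbp4 (9.41%) were below that median. Zbtb16 varied 2.79-fold and Nr3c2 2.53-fold from the lowest to the highest mouse, compared with 1.43-fold for Fkbp5.

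**Figure D1:**
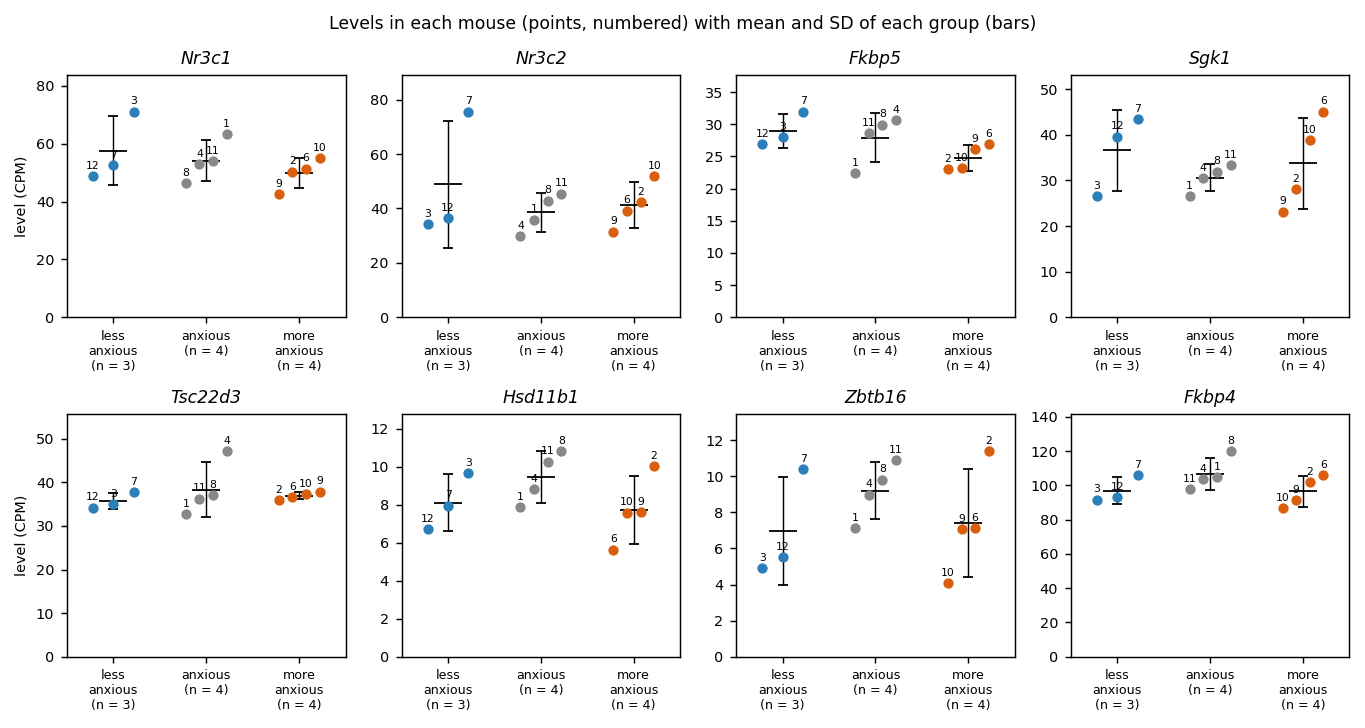
Level in CPM (vertical axis, from 0) of each of the 8 genes in each mouse, by anxiety group (horizontal axis), with numbered points for mice and bars for the mean and SD of a group. The less anxious and more anxious mice overlap in every gene, and mouse 7 stands above the others for Nr3c2 (75.6 CPM) as mouse 4 does for Tsc22d3 (47.2 CPM).

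The libraries held 31745630 to 45142355 estimated counts in the 11 grouped mice (median 36578626). The comparison of the 3 groups asks which genes differ along PC2, by which the mice were named. The names do not follow behavior in every mouse, as more anxious mouse 6 had the most open time (29.2%) and the most time in the light (46.6%). The edgeR model also held each mouse's score on the first component (PC1), and after adjustment over all genes it called 2 of 26963 at p under 0.05 (0.00742%), while 1713 genes (6.35%) had an unadjusted p under 0.05. Of the 6 amygdala marker genes, every one was detected in every mouse, with a summed level between 241 and 548 CPM, most of it Sst (182 to 469 CPM). Of the 5 pituitary markers, 3 were at 0 in some mouse. Markers of neighboring tissue varied widely. The summed level of 5 hippocampal markers ran from 24.2 to 80.4 CPM, that of 5 striatal markers from 63.4 to 274 CPM, and that of 5 pituitary markers was 53.8 CPM in mouse 4, 11.2 CPM in mouse 11 and 1.17 to 4.88 CPM in the others. Where these move with a gene of interest, the values are given beside it. In bulk tissue, fewer cells of a type and less RNA per cell cannot be told apart.

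None of the 8 genes was called across the anxiety groups. None passed the adjusted threshold, and none had an unadjusted p under 0.05, where 6.35% of all genes did. Of the 15886 genes with a mean of at least 1 CPM, 10.0% had no overlap between the less anxious and the more anxious mice, and none of the 8 genes was among them. The median log2 difference of more against less anxious mice was -0.11 over the 8 genes and 0.00 over all genes tested, with 6 of the 8 lower. DESeq2's likelihood ratio test of the same model called none of the 8 genes either.

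Nr3c1 encodes the glucocorticoid receptor and lies on the minus strand of chromosome 18 (ENSMUSG00000024431, 39410545 to 39519421, mm10, GENCODE M21). It was at 71.1, 52.6 and 48.9 CPM in less anxious mice 3, 7 and 12, at 63.4, 53.0, 46.3 and 54.0 CPM in anxious mice 1, 4, 8 and 11, and at 50.4, 51.4, 42.6 and 55.0 CPM in more anxious mice 2, 6, 9 and 10. Mouse 3 was the highest and mouse 9 the lowest, and the groups overlapped. The log2 difference of more against less anxious mice was -0.16 ± 0.14 (SE, 95% interval -0.46 to 0.13, edgeR adjusted p across the groups 0.954).

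Nr3c2 encodes the mineralocorticoid receptor (ENSMUSG00000031618, chromosome 8, 76899442 to 77245012, plus strand). It was at 34.3, 75.6 and 36.6 CPM in less anxious mice 3, 7 and 12, at 35.9, 29.8, 42.9 and 45.4 CPM in anxious mice 1, 4, 8 and 11, and at 42.3, 39.2, 31.5 and 51.9 CPM in more anxious mice 2, 6, 9 and 10. Mouse 7 was well above the next mouse, and without it the other less anxious mice lay within the range of the more anxious ones. Mouse 7 also had the highest summed level of the 5 hippocampal markers (80.4 CPM), most of it Fibcd1, a marker of hippocampal area CA1, at 52.8 CPM. Spink8, at 12.4 CPM, was also highest in mouse 7. The list was not high as a whole, with Prox1, C1ql2 and Tdo2 at 10.7, 4.35 and 0.176 CPM, Tdo2 being the lowest of all mice. What the hippocampal markers contribute to its Nr3c2 level was not tested. The difference of more against less anxious mice was -0.26 ± 0.26 on the log2 scale (SE, 95% interval -0.84 to 0.32, edgeR adjusted p across the groups 0.948), and without mouse 7 it became 0.20. Nr3c2 shares 247 exon bases with the antisense transcript Gm10649. The library kit keeps the strand, but whether the counting used it is not given in the sources used here.

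The balance of the receptors, as the ratio of their CPM in a mouse, was compared over the order of the groups. The Nr3c2 to Nr3c1 ratio was 0.482, 1.44 and 0.748 in less anxious mice 3, 7 and 12, 0.566, 0.563, 0.927 and 0.841 in anxious mice 1, 4, 8 and 11, and 0.840, 0.762, 0.738 and 0.944 in more anxious mice 2, 6, 9 and 10. Both extremes were in the less anxious group. Mouse 3 had the highest Nr3c1 and a low Nr3c2, whereas mouse 7 had the highest Nr3c2. The ratio is not per kilobase, so it compares mice and not the levels of the receptors. The log2 ratio correlated with the order of the groups at r = 0.0443 (two-sided p = 0.901 over all 11550 arrangements, an exact test), which was 0.529 without mouse 7 (exact permutation p = 0.115) and -0.238 without mouse 3 (exact permutation p = 0.519).

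Hsd11b1 encodes the enzyme that regenerates active corticosterone from its inert 11-keto form inside cells (ENSMUSG00000016194, chromosome 1, 193221634 to 193264075, minus strand). Its level was 9.66, 7.95 and 6.71 CPM in less anxious mice 3, 7 and 12, 7.86, 8.83, 10.8 and 10.3 CPM in anxious mice 1, 4, 8 and 11, and 10.0, 5.63, 7.60 and 7.58 CPM in more anxious mice 2, 6, 9 and 10. The anxious group had the highest mean (9.45 ± 1.35 CPM, SD), but all 3 groups overlapped. The log2 difference of more against less anxious mice was -0.06 ± 0.20 (SE, 95% interval -0.49 to 0.37, edgeR adjusted p across the groups 0.919). It turned to 0.09 without mouse 3 and to 0.04 without mouse 6. Hsd11b2, which encodes the enzyme that inactivates the hormone, was at most at 0.0908 CPM in any mouse.

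Fkbp5 encodes FKBP51, the co-chaperone that lowers the affinity of the receptor for hormone and is itself induced by the receptor, in a short negative feedback loop (ENSMUSG00000024222, chromosome 17, 28399094 to 28517527, minus strand). It was at 28.0, 31.96 and 26.9 CPM in less anxious mice 3, 7 and 12, at 22.3, 30.7, 29.9 and 28.6 CPM in anxious mice 1, 4, 8 and 11, and at 23.0, 26.9, 26.2 and 23.1 CPM in more anxious mice 2, 6, 9 and 10. The group means were 29.0 ± 2.66, 27.9 ± 3.80 and 24.8 ± 2.03 CPM in that order (SD), and the less and more anxious mice met at 26.9 CPM. Of the 8 genes it had the smallest p across the groups, an unadjusted 0.108 by edgeR (adjusted p = 0.856). More anxious mice differed from less anxious mice by -0.26 ± 0.12 on the log2 scale (SE, 95% interval -0.51 to -0.01, edgeR adjusted p = 0.551 for this pair). The interval excluded 0 only before adjustment. The summed CPM of 6 endothelial markers was 119 to 170 in less anxious and 89.4 to 110 in more anxious mice. These ranges did not overlap, as in 10.0% of single genes with a mean of at least 1 CPM. The part of this sum in the Fkbp5 difference was not tested.

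Fkbp4 encodes FKBP52, the co-chaperone that takes the place of FKBP51 in the hormone-bound complex and links it to dynein for transport (ENSMUSG00000030357, chromosome 6, 128429735 to 128438677, minus strand). It was at 91.7, 106 and 93.1 CPM in less anxious mice 3, 7 and 12, at 105, 103, 120 and 97.9 CPM in anxious mice 1, 4, 8 and 11, and at 102, 106, 91.5 and 86.5 CPM in more anxious mice 2, 6, 9 and 10. It varied least of the 8 genes, and the groups overlapped throughout. The log2 difference of more against less anxious mice was -0.06 ± 0.08 (SE, 95% interval -0.23 to 0.12, edgeR adjusted p across the groups 0.904).

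The ratio of Fkbp5 to Fkbp4 sets the competing co-chaperones against each other within a mouse. It was 0.305, 0.302 and 0.289 in less anxious mice 3, 7 and 12, 0.213, 0.296, 0.249 and 0.293 in anxious mice 1, 4, 8 and 11, and 0.225, 0.255, 0.286 and 0.267 in more anxious mice 2, 6, 9 and 10. Each less anxious mouse was above each more anxious mouse, by as little as 0.289 against 0.286, while the anxious mice spanned most of the range. Of single genes with a mean of at least 1 CPM, 10.0% had no overlap between these groups. The share among ratios is not given here. The log2 ratio correlated with the order of the groups at r = -0.481 (exact two-sided p = 0.134). Without mouse 1, the lowest of all, it was -0.655 (exact permutation p = 0.0383). Without any of the 10 other mice the exact permutation p was 0.0762 to 0.288, with the weakest r, -0.375, without mouse 2. Between less and more anxious mice alone the log2 ratio differed by -0.21 (exact permutation p = 0.0571, where 3 mice against 4 cannot reach below 0.0286).

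**Figure D2:**
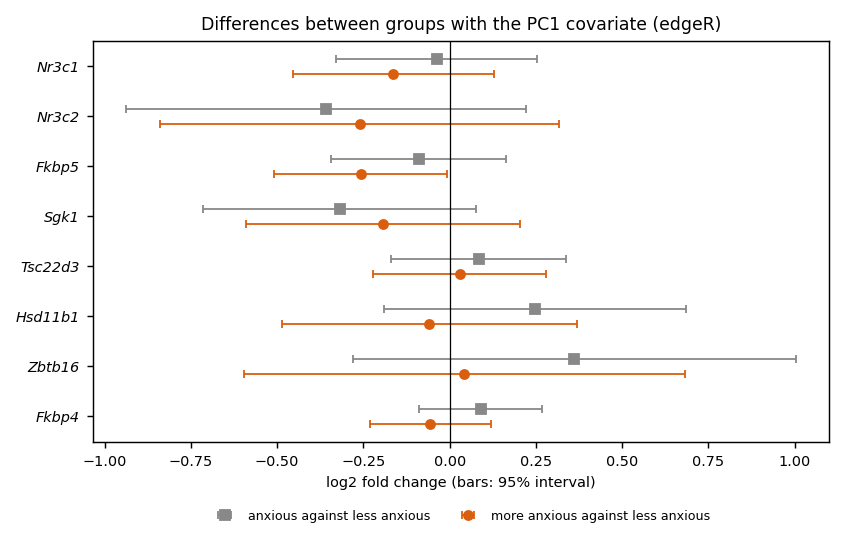
Log2 fold change (horizontal axis) of each gene in anxious (squares) and more anxious (circles) mice against less anxious mice, from edgeR with the PC1 score as a covariate, with 95% intervals as bars. Only the interval of Fkbp5 in more anxious mice, -0.51 to -0.01, does not reach 0, before any adjustment, and the intervals are widest for Nr3c2 and Zbtb16.

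The targets were Sgk1, Tsc22d3 and Zbtb16. Sgk1 encodes a serum- and glucocorticoid-induced kinase that acts on ion channels and transporters (ENSMUSG00000019970, chromosome 10, 21882184 to 21999903, plus strand). It was at 26.6, 43.5 and 39.6 CPM in less anxious mice 3, 7 and 12, at 26.5, 30.5, 31.9 and 33.3 CPM in anxious mice 1, 4, 8 and 11, and at 28.1, 45.1, 23.1 and 38.7 CPM in more anxious mice 2, 6, 9 and 10. Its highest mice, 6, 7, 12 and 10, came from both outer groups, and the anxious mice were all below them. The log2 difference of more against less anxious mice was -0.19 ± 0.18 (SE, 95% interval -0.59 to 0.20, edgeR adjusted p across the groups 0.920).

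Tsc22d3 encodes GILZ, a leucine zipper protein through which glucocorticoids dampen inflammatory signaling (ENSMUSG00000031431, chromosome X, 140539528 to 140600659, minus strand). It was at 35.1, 37.8 and 34.2 CPM in less anxious mice 3, 7 and 12, at 32.6, 47.2, 37.1 and 36.3 CPM in anxious mice 1, 4, 8 and 11, and at 35.9, 36.7, 37.9 and 37.4 CPM in more anxious mice 2, 6, 9 and 10. All mice but mouse 4 lay between 32.6 and 37.9 CPM. Mouse 4 also had the highest summed pituitary markers (53.8 CPM), of which prolactin (Prl) was at 31.9 CPM and growth hormone (Gh) at 19.9 CPM, and their part in its Tsc22d3 level was not tested. The log2 difference of more against less anxious mice was 0.03 ± 0.12 (SE, 95% interval -0.22 to 0.28, edgeR adjusted p across the groups 0.987).

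Zbtb16 encodes PLZF, a zinc finger repressor induced by glucocorticoids in many tissues (ENSMUSG00000066687, chromosome 9, 48654297 to 48836222, minus strand). It was at 4.93, 10.4 and 5.53 CPM in less anxious mice 3, 7 and 12, at 7.14, 8.99, 9.83 and 10.9 CPM in anxious mice 1, 4, 8 and 11, and at 11.4, 7.13, 7.05 and 4.10 CPM in more anxious mice 2, 6, 9 and 10. Both outer groups held low and high mice, and the groups overlapped. The log2 difference of more against less anxious mice was 0.04 ± 0.29 (SE, 95% interval -0.60 to 0.68, edgeR adjusted p across the groups 0.948), and it changed sign in 4 of the 11 fits that left out a mouse (mice 2, 3, 9 and 12).

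Against the behavior measures, which were not taken from the expression data, Sgk1 had the lowest p-values of the 8 genes, both in the EPM, but none that passed adjustment. Slopes are log2 changes per SD of a measure, fitted by edgeR without a covariate over 11 mice (10 mice at 3 min, where mouse 4 has no value). Of 56 relations between the 8 genes and 7 measures, 7 had an unadjusted p under 0.05 (12.5%), compared with 6.35% of all relations between genes and measures. The measures share mice and are related to each other, so the relations are not independent.

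In the EPM, a mouse that stays longer on the open arms is read as less anxious, and total entries also rise with general movement. By edgeR, 0.00% of 26963 genes were called for the percentage of open time and 0.00% for total entries, and unadjusted p-values under 0.05 were found in 5.84% and 6.97% of genes. Sgk1 had a slope of 0.20 ± 0.07 per SD of open time (SE, unadjusted p = 0.00843, edgeR adjusted p = 0.693) and of 0.22 ± 0.07 per SD of entries (unadjusted p = 0.00503, edgeR adjusted p = 0.594). The mice with the most Sgk1 were mouse 6 with 29.2% open time and 36 entries, mouse 7 with 24.5% and 31 entries, and mouse 12 with 24.6% and 42 entries. The mouse with the least, mouse 9, had 4.30% and 22 entries. Mouse 10 departed from this order in open time, with 38.7 CPM of Sgk1 at 3.25%.

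With each mouse left out in turn, the Sgk1 slope stayed between 0.16 and 0.28 for open time and between 0.19 and 0.25 for entries, and the unadjusted p was under 0.05 in all 11 fits of each. Those p-values ran from 0.000116 to 0.0469 for open time and from 0.00213 to 0.0154 for entries. Mice 12, 6 and 7 also had the highest summed striatal markers, 274, 223 and 199 CPM. Their part in the slope was not tested. Fkbp5 had a slope of 0.12 ± 0.05 per SD of open time (SE, unadjusted p = 0.0247, edgeR adjusted p = 0.756), with an unadjusted p under 0.05 in 7 of 11 fits without a mouse (range 0.00971 to 0.0785). The 4 mice with the least open time, 2, 10, 9 and 1, had 23.0, 23.1, 26.2 and 22.3 CPM of Fkbp5, and the 7 others had 26.9 to 31.96 CPM. The share of all genes that separate the same mice is not given here, so this split is only a description.

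In the LD, edgeR called 0.00742% of genes for the percentage of time in the light and 0.00% for the percentage of distance there, and 3.55% and 5.80% had an unadjusted p under 0.05. Nr3c1 had a slope of 0.13 ± 0.05 per SD of distance in the light (SE, unadjusted p = 0.0303, edgeR adjusted p = 0.848) and of 0.12 ± 0.06 per SD of time in the light (unadjusted p = 0.0563, edgeR adjusted p = 0.9997). The slope on distance was 0.08 without mouse 3, which had the most Nr3c1 (unadjusted p = 0.105). The 7 other genes had no unadjusted p under 0.05 for either LD measure.

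In the SIT, the box:zone ratio compares time beside a stranger mouse with time at a distance from it. By edgeR, 0.0150% of 26651 genes were called at 3 min, 0.0111% of 26963 at 5 min and 0.0223% at 10 min, and 7.65%, 6.56% and 8.05% had an unadjusted p under 0.05. At 3 min, Nr3c2 had a slope of -0.23 per SD of the ratio (SE 0.08, unadjusted p = 0.0176, edgeR adjusted p = 0.516), but this rested on mouse 7, which had the lowest ratio, 0.236, and the most Nr3c2. Without mouse 7 the slope was -0.05 (unadjusted p = 0.502). Sgk1 had a slope of -0.21 per SD at 3 min (SE 0.08, unadjusted p = 0.0167, edgeR adjusted p = 0.515), with slopes of -0.27 to -0.14 and an unadjusted p under 0.05 in 8 of 10 fits without a mouse. Its slopes at 5 and 10 min were -0.14 ± 0.09 and -0.11 ± 0.09 (SE, unadjusted p = 0.134 and 0.242, edgeR adjusted p = 0.826 and 0.792). Nr3c1 had a slope of 0.11 ± 0.05 per SD at 10 min (SE, unadjusted p = 0.0468, edgeR adjusted p = 0.616). That slope was -0.00497 without mouse 3, which had the highest 10-min ratio, 2.62, and the most Nr3c1.

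**Figure D3:**
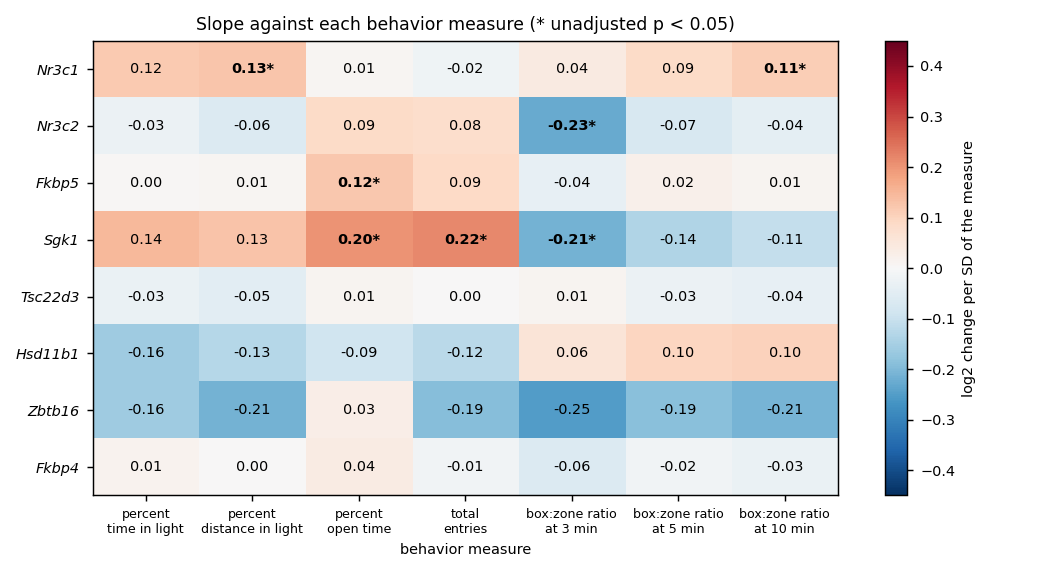
Slope of each gene (rows) against each behavior measure (columns) as the log2 change per SD, from edgeR, in numbers and color, with an asterisk at an unadjusted p under 0.05. The 7 marked slopes include 3 of Sgk1, 0.20, 0.22 and -0.21, and none passed adjustment over all genes.

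**Figure D4:**
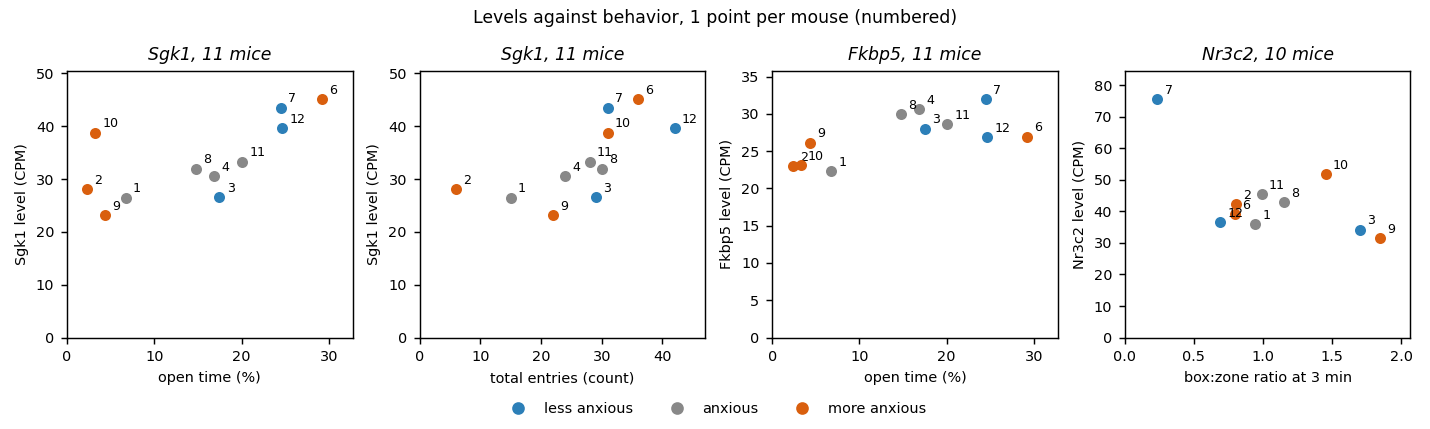
Level in CPM (vertical axes, from 0) against behavior (horizontal axes) for Sgk1 with open time in percent and total entries, Fkbp5 with open time, and Nr3c2 with the box:zone ratio at 3 min, 1 numbered point per mouse, colored by group. Sgk1 is high in mice 6, 7 and 12 at long open time and in mouse 10 at 3.25%, and the Nr3c2 slope of -0.23 is -0.05 without mouse 7.

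Tsc22d3, Zbtb16, Hsd11b1 and Fkbp4 had no unadjusted p under 0.05 for any measure. Zbtb16 had the largest slopes of these, -0.25 ± 0.13 at 3 min in the SIT (SE, unadjusted p = 0.0807, edgeR adjusted p = 0.703) and -0.21 ± 0.12 for distance in the light (unadjusted p = 0.105, edgeR adjusted p = 0.865). Hsd11b1 had slopes of -0.16 to -0.09 for the 4 measures of the EPM and LD and of 0.06 to 0.10 for the SIT. The slopes of Tsc22d3 lay between -0.05 and 0.01, and those of Fkbp4 between -0.06 and 0.04.

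The level of Fkbp5 in each mouse, a common readout of receptor activity, was then used as the variable. By edgeR it called 0.00% of 26962 other genes, and 5.27% had an unadjusted p under 0.05. None of the 7 other genes of the set passed either threshold. Per SD of log2 Fkbp5, Tsc22d3 had a slope of 0.08 ± 0.04 (SE, unadjusted p = 0.110, edgeR adjusted p = 0.990), followed by Zbtb16 at 0.15 ± 0.13 and Fkbp4 at 0.05 ± 0.04, and 6 of the 7 slopes were above 0. Of the 26 other glucocorticoid-induced genes, 19 had a slope above 0 (73.1%, compared with 50.3% of all genes), with a median of 0.02, and none had an unadjusted p under 0.05. The genes with the smallest p were Ccdc91, at -0.55 ± 0.08 per SD (edgeR adjusted p = 0.143), and Gpnmb, a glycoprotein of macrophages and pigment cells, at 0.47 ± 0.08 (edgeR adjusted p = 0.174). Both passed in DESeq2's likelihood ratio test (adjusted p = 2.44e-06 and 0.000106), and Ccdc91 also passed in edgeR with mouse 5 included (adjusted p = 0.0375). Between them came Gm7984, with 3 or more reads in 2 mice, and the near-identical Fam205a2 and Fam205a3, with 3 or more in 1 mouse, whose counts can be divided between the copies.

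Over the 28 pairs of the 8 genes, 19 had a Pearson r above 0 in log2 CPM, with a median of 0.127, and 2 had a permutation p under 0.05. Zbtb16 and Fkbp4 had the highest, r = 0.696 (permutation p = 0.0169, with Spearman rho = 0.609 and permutation p = 0.0519, p = 0.473 after Benjamini-Hochberg adjustment over the pairs), and r = 0.611 without mice 2 and 10. Nr3c2 and Sgk1 had r = 0.614 (permutation p = 0.0367, with Spearman rho = 0.618 and permutation p = 0.0467, adjusted p = 0.514 by the same permutation test), which was 0.382 without mice 7 and 10. Fkbp5 and Tsc22d3 had r = 0.519 (permutation p = 0.0936, with Spearman rho = 0.509 and permutation p = 0.114), and 0.415 without mice 1 and 7. The receptors had no detectable relation to each other (r = -0.0283, permutation p = 0.932, with Spearman rho = 0.0273 and permutation p = 0.948), and leaving out mice 3 and 9 gave -0.0629. Among the 6 pairs of the target genes Fkbp5, Sgk1, Tsc22d3 and Zbtb16, 5 had r above 0, with a median of 0.266. Many genes outside the set had a higher r. Among 15885 genes, Fkbp4 had place 401 for Zbtb16, Sgk1 place 275 for Nr3c2 and Tsc22d3 place 972 for Fkbp5. The shares of all gene pairs with r above 0 or a p under 0.05 are not given here.

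Each of the 8 genes was also set against all others. Of 15885 genes with a mean of at least 1 CPM, the closest to each over 11 mice had a Pearson r of 0.879 to 0.961, given as a description, since the highest of so many is large by selection. Nr3c1 was closest to Abi2 (r = 0.934), Zfp51 (0.928) and Top1 (0.919), the gene of DNA topoisomerase I. Nr3c2 was closest to Lix1l (r = 0.890), Pcdhga11 (0.881) and Usp3 (0.866), and Sgk1 to Il18rap (r = 0.879), Amd2 (0.877) and Pggt1b (0.863). For Fkbp5 they were Ramp3 (r = 0.961), which encodes a receptor activity-modifying protein, Pla2g15 (0.932) and Gpnmb (0.923). Tsc22d3 was closest to Sh2b3 (r = 0.915), Atp6v0e (0.908) and Smpd2 (0.901), but without mice 1 and 4 these were 0.811, 0.564 and 0.657. Hsd11b1 was closest to Mrps9 (r = 0.937), Ccdc114 (0.921) and Lpl (0.898), the gene of lipoprotein lipase. For Zbtb16 they were Timp2 (r = 0.938), Cpne2 (0.934) and Celf6 (0.922), and for Fkbp4 Zmynd8 (r = 0.923), Cygb (0.920) and Zfp423 (0.902).

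Levels of the 8 genes were also set beside markers of cell types and neighboring regions. Each gene was set against the summed CPM of 10 marker lists, 80 relations chosen after seeing the data, of which 8 had a permutation p under 0.05 and none an adjusted p under 0.05. The share of all genes related to these sums is not given here, so the 8 relations cannot be called particular to this set. Zbtb16 had the strongest relation, with the 5 hippocampal markers (r = 0.866, permutation p = 0.000930, with Spearman rho = 0.909 and permutation p = 0.000390, adjusted p = 0.0744 over the 80 permutation tests), and leaving out mice 2 and 7 gave 0.851. Its 4 highest mice, 2, 11, 7 and 8, were the 4 highest in that sum (67.0, 56.3, 80.4 and 54.6 CPM). Of the sum, Fibcd1 alone was 38.2 CPM in mouse 2 and 52.8 CPM in mouse 7, and the 5 markers did not rise together. C1ql2 was highest in mice 8, 11 and 2 but at 4.35 CPM in mouse 7, and Spink8 was at 2.91 CPM in mouse 2. Zbtb16 also had r = 0.793 with the 6 amygdala markers (permutation p = 0.00363, with Spearman rho = 0.636 and permutation p = 0.0407, adjusted p = 0.0968 by the same permutation tests), and leaving out mice 10 and 12 gave 0.562.

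Hsd11b1 had an inverse relation to the 5 striatal markers (r = -0.815, permutation p = 0.00208, with Spearman rho = -0.791 and permutation p = 0.00554, adjusted p = 0.0832 by the same permutation tests), and leaving out mice 4 and 12 gave -0.889. Nr3c1 had r = 0.743 with the 6 astrocyte markers (permutation p = 0.00824, with Spearman rho = 0.591 and permutation p = 0.0598, adjusted p = 0.165 by the same permutation tests), and leaving out mice 3 and 7 gave 0.739. Nr3c2 had r = 0.569 with the hippocampal markers (permutation p = 0.0616, with Spearman rho = 0.355 and permutation p = 0.288), and 0.163 without mice 2 and 7. Sgk1 had r = 0.485 with the striatal markers (permutation p = 0.131, with Spearman rho = 0.391 and permutation p = 0.238), and 0.433 without mice 4 and 12. The other relations with a permutation p under 0.05 were those of Fkbp5 with the 6 endothelial markers (r = 0.621, permutation p = 0.0409, with Spearman rho = 0.627 and permutation p = 0.0444, and r = 0.318 without mice 7 and 8), of Hsd11b1 with the 6 oligodendrocyte markers (r = -0.707), and of Fkbp4 with the hippocampal (r = 0.631) and amygdala (r = 0.626) markers. Their adjusted permutation p-values were 0.409, 0.237, 0.409 and 0.409. The amygdala sum set against Fkbp4 was likewise mostly Sst. What these tissue markers contribute to the levels was not tested.

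**Figure D5:**
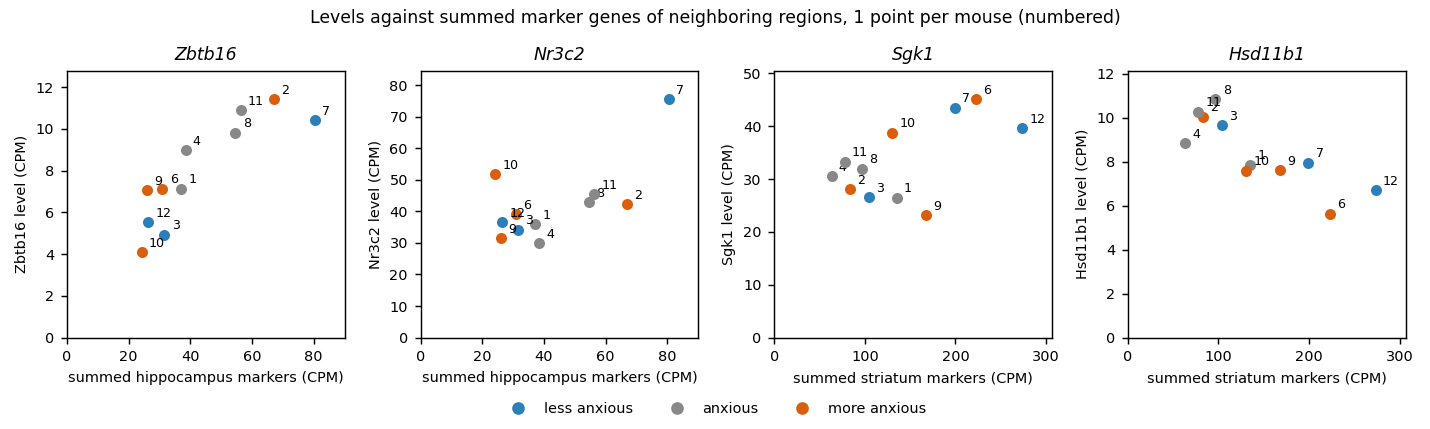
Level in CPM (vertical axes, from 0) of Zbtb16 and Nr3c2 against the summed CPM of 5 hippocampal markers, and of Sgk1 and Hsd11b1 against that of 5 striatal markers (horizontal axes), 1 numbered point per mouse, colored by group. The 4 mice with the most Zbtb16 have the 4 highest hippocampal sums, Nr3c2 is apart in mouse 7, and Hsd11b1 is lowest in mouse 6, at 5.63 CPM and 223 CPM of striatal markers. Fibcd1 alone makes up 38.2 and 52.8 CPM of the hippocampal sum in mice 2 and 7.

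Beyond the 8 genes, the pathway was covered by lists of 26 other glucocorticoid-induced genes, 12 receptor chaperones, 8 genes of ligand handling and 9 coregulators. No gene of these lists was called across the anxiety groups by edgeR. Of the 26 induced genes, 3 had an unadjusted p under 0.05, 2 higher and 1 lower in more anxious mice, where 6.35% of all genes had one. In 17 of the 26 the log2 difference was above 0, as it was in 13617 of all 26963 genes. Their median log2 difference of more against less anxious mice was 0.19, compared with -0.11 in the 8 genes and 0.00 over all genes. Cebpb, a leucine zipper transcription factor, was at 1.45 ± 0.445, 2.17 ± 0.461 and 3.37 ± 0.883 CPM in the less anxious, anxious and more anxious mice (SD, log2 difference 1.21 ± 0.28, SE, edgeR adjusted p = 0.447), and it passed in DESeq2's likelihood ratio test (adjusted p = 0.0259). The related Cebpd was at 0.946 ± 0.313, 1.39 ± 0.397 and 1.99 ± 0.215 CPM (SD, edgeR adjusted p = 0.553, DESeq2 adjusted p = 0.148). Txnip, which encodes a thioredoxin inhibitor, was at 12.6 ± 1.30, 10.4 ± 1.55 and 9.18 ± 0.908 CPM (SD, edgeR adjusted p = 0.692). Mt1, a metallothionein, was at 102 ± 16.9, 109 ± 28.6 and 133 ± 19.4 CPM (SD, edgeR adjusted p = 0.804).

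Of the 12 chaperones, 3 had an unadjusted p under 0.05 for any change across the groups, where 6.35% of all genes had one. Each had a log2 difference of more against less anxious mice above 0, as 1064 of those 1713 genes did. The p does not test that direction, and Ppid was highest in the anxious mice. With each mouse left out, the unadjusted edgeR p stayed under 0.05 in 8 of 11 fits for Stub1, 6 for Stip1 and 6 for Ppid. Stub1, a ubiquitin ligase that acts with heat shock proteins, was at 110 ± 8.74, 133 ± 7.92 and 132 ± 10.4 CPM (SD, log2 difference 0.25 ± 0.09, SE, edgeR adjusted p = 0.715). Stip1, which hands receptors between heat shock proteins, was at 156 ± 7.78, 195 ± 23.5 and 186 ± 21.2 CPM (SD, edgeR adjusted p = 0.756), and Ppid, another immunophilin of the receptor complex, at 95.7 ± 12.8, 112 ± 12.7 and 99.0 ± 10.6 CPM (SD, edgeR adjusted p = 0.709). The log2 difference of Ppid, 0.10 ± 0.10 (SE), had a 95% interval of -0.11 to 0.31. Bag1 had an edgeR adjusted p of 0.904. Their median log2 difference was 0.07, with 7 of 12 higher, beside 13617 of 26963 genes in all.

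Of the 8 genes of ligand handling, 6 had enough reads to test. Abcb1a encodes P-glycoprotein, the pump at the blood-brain barrier that exports some glucocorticoids. It was at 25.0 ± 7.39, 16.1 ± 3.69 and 15.9 ± 2.01 CPM in the less anxious, anxious and more anxious mice (SD, log2 difference of more against less anxious -0.55 ± 0.17, SE, edgeR unadjusted p = 0.00890, adjusted p = 0.589). The summed CPM of 6 endothelial markers was 119 to 170, 94.6 to 142 and 89.4 to 110 in the same groups, and its part in Abcb1a was not tested. Srd5a1, Abcb1b and Cyp11b1 had edgeR adjusted p-values of 0.951 to 0.970, and Cyp11b1, an enzyme of corticosterone synthesis, stayed at or below 0.120 CPM. None of the 9 coregulators had an unadjusted p under 0.05, and Nrip1, Crebbp and Ep300 had edgeR adjusted p-values of 0.842, 0.900 and 0.930.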

How the data were processed

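Libraries were made with a stranded mRNA kit from the amygdalae of 12 mice and sequenced from 1 end (75 bp) in a single run. Reads were trimmed by the authors, mapped with STAR (mm10), quantified transcripts by Salmon and used tximport to bring the estimates to genes. The deposited values are estimated counts per gene as whole numbers, without normalization. Versions are not given in the sources used here. Anxiety groups and behavior values are those of the labels. Mouse 5, which has no group and which the authors removed as an outlier in a principal component analysis of expression, was left out (32682574 counts).

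Estimated counts of genes with at least 10 reads in total were tested with edgeR 4.0.16 in R 4.3.3 (TMM factors, robust quasi-likelihood F-test, Benjamini-Hochberg adjustment over all genes). The groups were fitted with the PC1 score of variance-stabilized counts (DESeq2 1.42.0, 34511 genes, 20.2% of the variance) as covariate, and each behavior measure as a standardized number. SEs are the log2 change divided by the square root of F. Log2 CPM used a prior count of 2. Correlations had 100000 permutations, and ratio tests all arrangements, two-sided. The procedures were tested on simulated data. Salmon divides reads among similar transcripts, which makes counts of near-identical genes less certain. Intervals and p-values cover the spread between mice.

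The genes to be named were all 8, up to 4 genes per pathway list with the smallest p across the groups, the 5 genes with the smallest p for the level of Fkbp5, and the 3 closest genes to each of the 8. A coregulator that this rule names is not reported here. Fibcd1, Prl, Gh and Hsd11b2 were named after their values were seen. The markers Sst, Spink8, Prox1, C1ql2 and Tdo2 also fall outside the naming rule. The 8 genes and all lists were chosen with earlier results of these data known. Promoter windows are those of RefSeq, GRCm38.p6, and gene positions those of GENCODE M21, which held 99.1% of the deposited genes. Nr3c1 and Zbtb16 had no window in the table used. The lists of markers had 5 to 7 genes each. Across groups, no gene of the neuron (1 of 7), oligodendrocyte (1 of 6), astrocyte (1 of 6), microglia (0 of 5), endothelium (2 of 6), choroid plexus (1 of 5), amygdala (1 of 6), hippocampus (3 of 5), striatum (2 of 5) or pituitary (4 of 5) lists was called by edgeR, the numbers being those with an unadjusted p under 0.05.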

Additional observations from a re-analysis of the deposited data

How the results depend on the processing

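In all 152 alternative fits, none of the 8 genes was called, and 702 of 722 recomputed values of the named genes kept their direction. The counts over all genes moved more. DESeq2's likelihood ratio test called 197 genes across the groups, 15 for time in light, 26 for distance in light, 43 for open time, 45 for entries, 161, 43 and 111 for the SIT (box:zone ratio at 3, 5 and 10 min), and 27 for the level of Fkbp5. Without a count filter the counts were 9 (groups), 4 (time in light), 1 (open time), 11, 7 and 10 (3, 5 and 10 min), and with filterByExpr 0, 0, 1, 0 and 0 for groups, time in light, 3, 5 and 10 min. DESeq2 size factors gave 1 for open time. With mouse 5 they were 1 (time in light), 1 (open time), 6 (5 min) and 1 (Fkbp5), and with ranks 0 for time in light, 5 min and 10 min. The groups gave 0 without PC1 and 22 with group order as a number. Leaving out 1 mouse gave 0 to 4 for the groups, 0 to 16 and 0 to 14 for time and distance in light (the highest without mouse 6), 0 to 3 for open time, 0 to 5 for entries, 1 to 6, 1 to 5 and 1 to 9 for the SIT, and 0 to 3 for Fkbp5.

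Leaving out 1 mouse moved the log2 difference of more against less anxious mice across 0 for Zbtb16 (-0.20 to 0.36), Hsd11b1 (-0.20 to 0.086), Nr3c2 (-0.45 to 0.20), Tsc22d3 (-0.00201 to 0.054), Crebbp (-0.20 to 0.090), Cyp11b1 (-0.045 to 1.35) and Nrip1 (-0.10 to 0.090). With group order as a number, Zbtb16 was at -0.000878 and Nrip1 at -0.017. The 10-min slope of Nr3c1 ran from -0.00497 to 0.13. On the level of Fkbp5, Nr3c1 ran from -0.056 to 0.021 and was 0.00494 with PC1, and Nr3c2 ran from -0.081 to 0.16. The correlation with group order ran from -0.238 to 0.529 for the receptor ratio and from -0.655 to -0.375 for the co-chaperone ratio. The cause of these shifts was not tested. No paired analysis was possible because each mouse is in a single group and the labels give nothing that pairs mice. With 3 or 4 mice a group, the 95% intervals of Fkbp4 and Tsc22d3 exclude log2 differences beyond 0.28 in size, while those of Nr3c2 and Zbtb16 reach -0.84 and 0.68.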

Other observations

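Mouse 5, which the labels put in no group and the authors removed as an outlier by expression, was scaled together with the other mice. Its levels were within their range for Nr3c1 (61.0 CPM), Nr3c2 (32.7 CPM), Fkbp5 (31.1 CPM), Sgk1 (42.1 CPM), Tsc22d3 (33.1 CPM), Hsd11b1 (6.49 CPM), Zbtb16 (8.13 CPM) and Fkbp4 (116 CPM), although a read fell on 23768 genes in mouse 5 and on 26378 to 28196 in the others. With mouse 5 included, the slope of Sgk1 on open time was 0.16 (edgeR unadjusted p = 0.0415, adjusted p = 0.999) and that on entries 0.21 (unadjusted p = 0.00702, adjusted p = 0.746). Of the 7 relations of the 8 genes with an unadjusted p under 0.05, 4 kept one with mouse 5, the others being Sgk1 and Nr3c2 at 3 min in the SIT (unadjusted p = 0.00970 and 0.0299 by edgeR). It was lost for Nr3c1 on distance in the light (slope 0.08, unadjusted p = 0.169), Fkbp5 on open time (0.10, unadjusted p = 0.0770) and Nr3c1 at 10 min (0.10, unadjusted p = 0.0813). With ranks of the entries in place of their values, Sgk1 had a slope of 0.27 (edgeR unadjusted p = 0.000174, adjusted p = 0.321). Ranks did not strengthen every relation. For Sgk1 on open time the slope was 0.19 (edgeR unadjusted p = 0.0134, adjusted p = 0.702), and at 3 min in the SIT it was -0.22 (unadjusted p = 0.0102, adjusted p = 0.509). Nr3c1 on distance in the light kept an unadjusted p under 0.05 with ranks, whereas Fkbp5 on open time lost it. Rank fits of Nr3c2 at 3 min and Nr3c1 at 10 min are not given here.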
